A study of Mus musculus with 9 samples.

Results

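The genes described here encode nuclear-encoded subunits of the mitochondrial respiratory chain and ATP synthase (complexes I to V) and proteins of the mitochondrial ribosome. Members were found by symbol in the gene column of a count table, as every symbol starting with Nduf and a, b, c, s or v and a digit, with Cox and a digit from 4 to 8, with Uqcr, Atp5, or Mrpl or Mrps and a digit, or equal to Sdha, Sdhb, Sdhc or Sdhd. The rule found 161 of 24061 symbols, and table rows of the same symbol were summed. It misses subunits with other symbols, such as Cyc1 of complex III and Ndufab1 of complex I, so counts per complex cover matched subunits only. Of the 161 members, 84 match the respiratory chain (35 complex I, 4 complex II, 8 complex III, 18 complex IV, 15 complex V, and 4 that match by symbol but are not subunits) and 77 the mitoribosome (48 of its large and 29 of its small subunit).

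The samples are polyA RNA of mouse bone marrow-derived macrophages, cultures grown from C57BL/6J marrow in medium conditioned by L cells, which supplies their growth factor. The study's question was how an agonist of the liver X receptors (LXR), sterol-sensing transcription factors, alters the response to bacterial lipopolysaccharide (LPS). There were 9 libraries in 3 groups of 3 cultures, all without serum in the last period of culture. The Veh group had DMSO only, the LPS group had DMSO and then LPS at 10 ng/mL for 2 hours, and the T0+LPS group had T0901317, the agonist, at 500 nM, and after 3 hours the same LPS, added to the medium that held the agonist. Whether Veh cultures were collected before or after the LPS period is not given in the sources. Library totals ran from 13299044 to 16467983 assigned reads.

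Complexes I, III and IV pump protons across the inner mitochondrial membrane as electrons pass from NADH and succinate to oxygen, complex II joins the chain to the TCA cycle, and complex V makes ATP from the gradient. A few subunits of complexes I, III, IV and V are encoded in mitochondrial DNA and made by the mitoribosome, so nuclear subunits and mitoribosomal proteins serve the same complexes. Macrophages exposed to LPS are known to turn from respiration toward glycolysis, to make itaconate from a TCA cycle intermediate and to release oxidants from the chain.

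The cultures carried macrophage transcripts. Of 9 macrophage markers listed, 8 were in the table. Their summed level was 29120, 26860 and 27170 CPM (reads per 1000000, with library sizes scaled by the TMM factors described further on) in Veh 1 to 3, 32330, 33720 and 32370 in LPS 1 to 3, and 36610, 35140 and 35510 in T0+LPS 1 to 3. The most abundant was Lyz2 at a mean of 21640 CPM, which makes up most of the sum. By the test described further on, with TMM factors, 4 of these markers were called higher and 2 lower in LPS against Veh. In T0+LPS against Veh the counts were 5 and 1. Itgam had no read and only 3 bases that no other row of the table covers, so it was not measured. Markers of other cells that could be counted were near 0. The most abundant of 9 neutrophil and precursor markers was S100a8 at 1.63 CPM, with S100a9, which has 3 such bases, at 0. The neutrophil sums were 1.55, 1.45 and 2.08 CPM in Veh 1 to 3, 3.33, 4.08 and 3.32 in LPS 1 to 3, and 3.58, 2.44 and 2.77 in T0+LPS 1 to 3. The most abundant of 7 T and NK cell markers was Cd4 at 2.51 CPM, with Cd3e at 0 on 1436 such bases, Cd8a and Klrb1c at 0 on 31 and 9, and sums between 1.70 and 3.42. Cd79b led the 4 B cell markers at 1.37 CPM, with sums of 1.98, 2.45 and 1.85 in Veh, 1.35, 1.60 and 1.00 in LPS and 1.45, 0.836 and 1.11 in T0+LPS. Xcr1 led the 4 dendritic cell markers at 1.39 CPM, with Siglech at 0 on 2397 such bases and sums of 0.267, 0.529 and 0.232 in Veh, 2.38, 2.91 and 2.24 in LPS and 2.89, 2.99 and 1.87 in T0+LPS. At these low levels the neutrophil and dendritic sums were higher, and the B cell sums lower, in every LPS-treated library than in every Veh library. The 5 fibroblast markers summed to at most 0.661 CPM, with Pdgfra and Dcn at 0. The 6 globin genes have at most 14 such bases and were not measured. The part of these cells in the results was not tested.

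How much of each member could be counted depends on the table's rows. A read that fits more than 1 row went to none, so a member is measured only on bases that no other row covers, the unshared bases. There are 142 members with 1 row and 19 with several. In all, 141 members had enough reads for a test in at least 1 comparison, and 20 did not. Of those 20, 13 have several rows. Ndufs1, which encodes the largest iron-sulfur subunit of complex I, has 0 unshared bases and 0 reads, so it was not measured, which says nothing about its level. Atp5c1, the central stalk subunit of ATP synthase, had 28 reads over 9 libraries on 635 unshared bases of its 2 rows, the longest of 1800 bases. Reads on the stretch both rows share went to neither, so the few reads hold for the unshared bases only. The tissue-restricted isoforms Cox6a2, Cox7b2, Cox8b and Cox8c have 1 row each, 590, 543, 363 and 476 unshared bases, and 42, 0, 1 and 0 reads, so their transcripts were not detectable or barely so at this depth. Only Cox7a1, the heart and muscle isoform, passed the filter, at 0.655 to 2.06 CPM over the 9 libraries. How reads that also fit processed pseudogenes were handled is not given in the sources.

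Levels can be compared between genes only per length, here as CPM per kilobase of unshared sequence, averaged over the 9 libraries. On that scale the subunits of a complex differ widely. Cox4i1, the ubiquitous isoform of a regulatory subunit of complex IV, was the highest member at 561, and Cox6a1 followed in the same complex at 315. In complex V the catalytic beta subunit Atp5b was at 364 and its alpha partner Atp5a1 at 262. These are the head subunits, present in several copies per enzyme. Whether copy number bears on transcript level was not tested.

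Within complex II, whose 4 subunits occur in equal number, the levels per kilobase were close: 119 for the iron-sulfur subunit Sdhb, 106 for the flavoprotein Sdha, and 101 and 88.2 for the membrane anchors Sdhc and Sdhd. Complex III was led by the hinge protein Uqcrh at 186 and Uqcr10 at 116. Complex I was led by Ndufa6 at 134 and Ndufa2 at 133, both accessory subunits of its matrix arm. Their order depends on the group. Ndufa6 had 75.2, 76.4 and 81.4 CPM in Veh and 75.5, 73.4 and 72.1 in T0+LPS. Ndufa2 had 64.0, 63.1 and 70.2 CPM in Veh and 80.8, 73.6 and 76.8 in T0+LPS. The mitoribosomal proteins were lower, and their highest were Mrps21 at 94.4 and Mrps6 at 51.2 in the small subunit and Mrpl52 at 69.9 and Mrpl20 at 63.7 in the large one. The rank of Mrpl52 comes from the treated cultures: its mean level per kilobase was 32.3 in Veh, 86.7 in LPS and 90.6 in T0+LPS, and in Veh Mrpl20 was higher at 53.6. The order of complexes is thus by transcript per length and says nothing about protein.

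**Figure D1:**
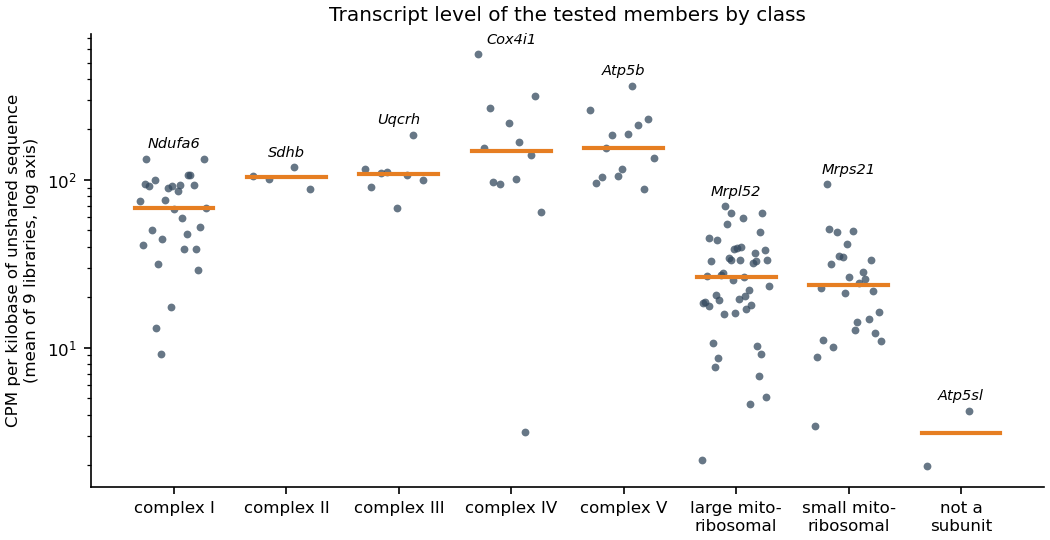
Level of each tested member in CPM per kilobase of unshared sequence (log axis, mean of 9 libraries), by class; lines are class medians and the highest member of each class is named. Cox4i1 at 561 and Atp5b at 364 lead, and the mitoribosomal genes lie below most subunits of complexes II to V.

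As a sum, the members took 0.893%, 0.889% and 0.922% of assigned reads in Veh 1 to 3, 0.839%, 0.872% and 0.772% in LPS 1 to 3, and 0.853%, 0.821% and 0.828% in T0+LPS 1 to 3. All Veh libraries lay above all others on this scale. The scale decides what such sums show. The TMM factors of edgeR, which center the ratios of most genes between libraries, were 1.136 to 1.144 in Veh, 0.932 to 0.948 in LPS and 0.931 to 0.938 in T0+LPS, so shares of reads and TMM-scaled CPM rank Veh against the other groups differently. In LPS against Veh the median log2 fold change of all 9559 symbols tested was -0.00 with TMM factors and -0.28 with library totals. Below, changes use TMM factors, are thus relative to the middle of all genes, and are given with library totals where the direction depends on it. No spike-in was measured, and fewer cells of a kind and less RNA per cell cannot be told apart in these bulk samples.

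The sum of complex V showed the difference between scales: its mean ± SD (n = 3) was 2066 ± 22.2 CPM in Veh, 2501 ± 149 in LPS and 2494 ± 56.9 in T0+LPS, but its share of reads was 0.235 ± 0.00347%, 0.235 ± 0.0121% and 0.233 ± 0.00558%. Complex I went from 1450 ± 44.7 to 1513 ± 136 and 1524 ± 27.8 CPM, and from 0.165 ± 0.00574% to 0.142 ± 0.0117% and 0.142 ± 0.00278% of reads. The ratio of respiratory chain to mitoribosome sums needs no scaling. It was 3.13, 3.17 and 3.21 in Veh 1 to 3, 3.34, 3.33 and 3.27 in LPS 1 to 3, and 3.27, 3.22 and 3.25 in T0+LPS 1 to 3. Every LPS-treated library lay above every Veh library, by a small margin.

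The library LPS 3 stands apart. It had the lowest CPM of its group for 121 of 140 members (86.4%), against 37.8% of 9232 symbols in all. The median log2 difference of members in LPS 3 from the mean of both other LPS libraries was -0.19, and it was -0.17 for the 756 symbols whose longest row is under 1000 bases and 0.07 for the 4111 symbols of 3000 bases or more. Members are short, with a median longest row of 934 bases against 2753 for all, so this library was low for short genes in general. Counts with and without it are given in each comparison it enters. A fit with a length offset per library removes a trend with the unshared bases of a symbol, not with its longest row. It called 27 respiratory chain genes higher and 3 lower and 20 mitoribosome genes higher and 12 lower in LPS against Veh. In T0+LPS against LPS it called 0 members.

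**Figure D2:**
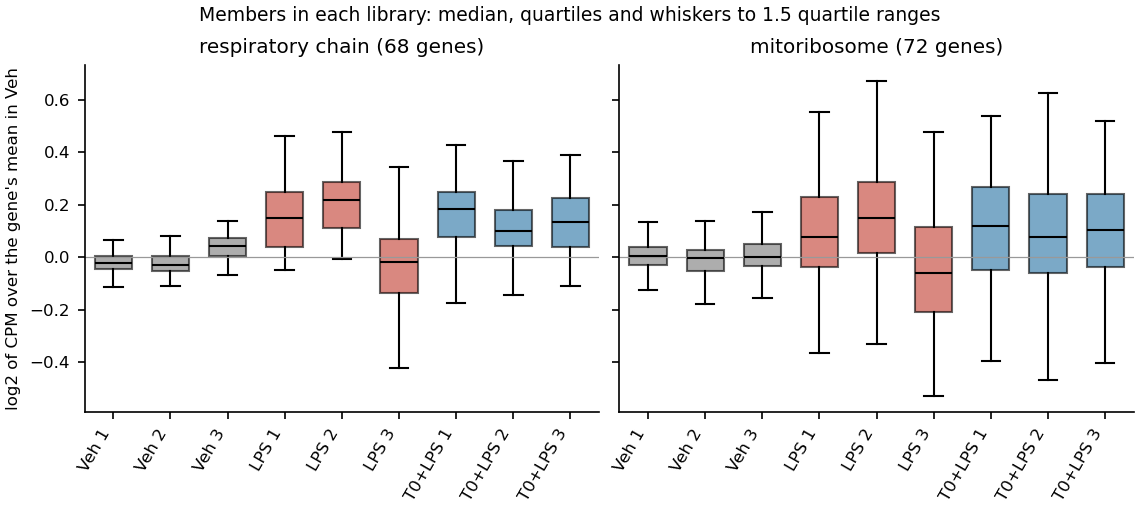
Members in each library as the log2 ratio of CPM to the gene's mean in Veh (boxes: quartiles with median; whiskers: 1.5 quartile ranges), for 68 respiratory chain and 72 mitoribosome genes, scaled by TMM factors; with library totals the LPS and T0+LPS boxes move down relative to Veh. LPS 3 is lower than both other LPS libraries in either panel.

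LPS for 2 hours against Veh asks how the inflammatory stimulus alone affects these genes. Most moved little while the transcriptome around them moved a great deal. The respiratory chain kept its relative level or rose slightly above the middle of all genes, with ATP synthase, complex III and complex IV in front and smaller changes in complexes I and II, though the number of calls in each complex rests on single libraries. With library totals most of these genes lie below Veh. The mitoribosome split, with a few large changes in single proteins and small ones in both directions among the rest.

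A gene was called changed at an adjusted p under 0.05 in the edgeR quasi-likelihood test across all symbols. Of the 68 respiratory chain genes tested, 25 (36.8%) were called higher and 3 (4.41%) lower with TMM factors, but 1 higher and 37 lower with library totals. Of the 72 mitoribosome genes, 18 (25%) were called higher and 11 (15.3%) lower with TMM factors, but 4 higher and 40 lower with library totals. Among all 9559 symbols, 32.9% were called higher and 31.2% lower with TMM factors, so the share of higher calls was near the background or below it and the share of lower calls was below it. With library totals this turns around: 17.7% of all symbols (1694) were called higher and 56.6% (5411) lower, against 1.47% and 54.4% of the respiratory chain and 5.56% and 55.6% of the mitoribosome, so lower calls were near the background and higher calls below it. The sets' medians lay 0.13 and 0.07 above the median of all symbols under TMM factors, and 0.13 and 0.07 above it under library totals. Those sizes rest on single libraries: the medians with TMM factors were 0.12 and 0.07 with all libraries, 0.07 and 0.03 without LPS 2, and 0.17 and 0.10 without LPS 3. The 11 lower calls of the mitoribosome became 6 without Veh 1, 7 without Veh 2, 7 without LPS 3 and 5 with DESeq2.

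The changes were small: a second rule, which adds a fold of over 1.5, called 7 of 140 members (5.0%) against 29.9% of all symbols. The median size of a change regardless of sign was 0.14 on the log2 scale for members and 0.34 for all. Without LPS 3, 43 respiratory chain genes were called higher and 3 lower, and 28 and 7 mitoribosome genes. Without LPS 2 the counts were 13 and 4, and 15 and 12. These counts therefore rest on which LPS libraries are kept.

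**Figure D3:**
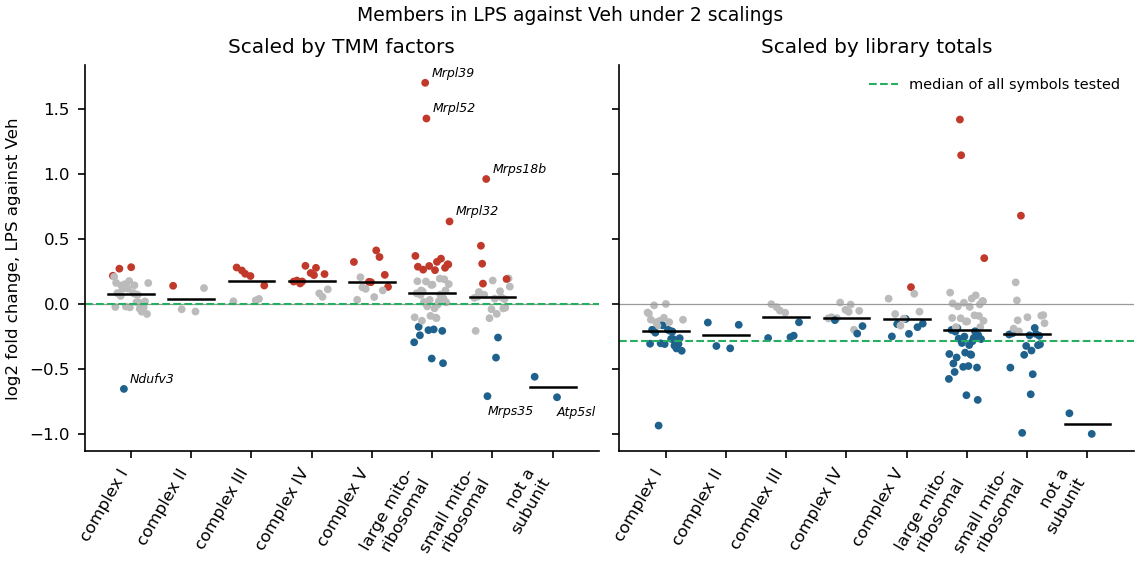
Log2 fold change of each tested member in LPS against Veh by class, with TMM factors (left) and library totals (right); red is called higher, blue called lower, grey not called, black lines are class medians and the dashed line the median of all symbols. With TMM factors most subunits sit slightly above 0 and with library totals most sit below 0, while in both panels most lie above the dashed line.

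Complex I, the entry point for NADH, moved little with TMM factors. Of 29 subunits tested, 3 were called higher and 1 lower with TMM factors (0 and 18 with library totals), and none of the 4 measured core subunits, which bind the cofactors, was called with TMM factors. How many pass depends on the libraries: 14 subunits, 1 of them a core subunit, were called higher without LPS 3, and 1 without LPS 1 or without LPS 2. Ndufa9, an accessory subunit near the ubiquinone site, had 59.9, 57.3 and 62.4 CPM in Veh 1 to 3 and 73.8, 75.7 and 66.9 in LPS 1 to 3. The groups did not overlap, and it rose by 0.27 (SE 0.06, adjusted p 6.0e-04), though its change with library totals was -0.01. Ndufv3, a small accessory subunit of the NADH-binding module, had 11.7, 13 and 13.8 CPM in Veh and 6.74, 9.10 and 8.42 in LPS. Every LPS value was below every Veh value, and the log2 change of -0.66 (SE 0.12, adjusted p 1.6e-04) was the only fall called in the complex with TMM factors.

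Complex II also stayed near its starting level with TMM factors, but all 4 of its genes were called lower with library totals. Sdha, which oxidizes succinate, had 287, 281 and 294 CPM in Veh and 320, 324 and 302 in LPS. The groups are separate but close: it rose by 0.14 with TMM factors (SE 0.04, adjusted p 9.7e-03) and stood at -0.14 with library totals. Without Veh 2 it was not called, at 0.12. Sdhb, Sdhc and Sdhd were not called with TMM factors, at -0.06, -0.04 and 0.12, and their groups overlapped, while with library totals they stood at -0.34, -0.32 and -0.16. With TMM factors Sdhb was called lower without LPS 2, at -0.14, and Sdhd higher without LPS 3 and without Veh 3, at 0.16 in each.

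Complex III passes electrons from ubiquinol to cytochrome c. Of its 8 matched subunits, 5 were called higher and none lower with TMM factors, but none higher and 4 lower with library totals. With TMM factors 3 were called higher without LPS 2 or without Veh 2. Cyc1, a subunit of this complex that the rule misses, rose by 0.29 (adjusted p 4.8e-05) with TMM factors. Uqcrfs1, the Rieske iron-sulfur protein, had 99.9, 112 and 104 CPM in Veh and 129, 131 and 122 in LPS. All LPS values exceeded all Veh values, and the change was 0.28 with TMM factors (SE 0.05, adjusted p 1.8e-04) and -0.00 with library totals. Uqcrb, a ubiquinone-binding subunit, rose by 0.26 (adjusted p 6.1e-04) with TMM factors and stood at -0.03 with library totals.

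Complex IV, cytochrome c oxidase, had 9 of 12 subunits called higher and none lower with TMM factors, and none higher and 3 lower with library totals. Without LPS 2 only 4 were called higher with TMM factors. Cox5a, a nuclear subunit on the matrix side, had 99.5, 96.9 and 102 CPM in Veh and 122, 128 and 111 in LPS. Its groups were separate, with LPS 3 the lowest of its group, and the change was 0.28 (SE 0.05, adjusted p 3.1e-04), or -0.01 with library totals. Cox7a2, the non-muscle isoform of a small membrane subunit, rose by 0.29 (adjusted p 1.5e-04). The most abundant, Cox4i1, was called at 0.17 (adjusted p 0.0147) although its groups overlapped through LPS 3 at 356 CPM against Veh 3 at 365, and with library totals it stood at -0.11. It was not called without LPS 2, at 0.10, or without Veh 2, at 0.15.

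Complex V, ATP synthase, had 7 of 13 subunits called higher and none lower with TMM factors, and 1 higher and 6 lower with library totals. With TMM factors 4 were called higher without LPS 1, LPS 2 or Veh 1, and 11 without LPS 3. The 1 called higher with library totals was Atp5b, the catalytic beta subunit, with 555, 565 and 579 CPM in Veh and 780, 759 and 718 in LPS. The lowest LPS library was far above the highest Veh library, and the rise of 0.41 (SE 0.04, adjusted p 2.9e-07) stayed above 0 with library totals at 0.13 (adjusted p 8.9e-03). Atp5a1, the alpha subunit of the same head, rose by 0.32 (adjusted p 2.7e-06). Atp5g3, a gene for the rotor ring's subunit c, had 121, 119 and 124 CPM in Veh and 158, 169 and 140 in LPS and rose by 0.36 (adjusted p 5.7e-05). Its groups were separate, but with library totals its change of 0.08 was not called.

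Atp5s and Atp5sl match the rule by symbol and are not part of the enzyme: the first encodes factor B, coupling factor of the synthase, and the second an assembly factor of complex I now named Dmac2. Both were called lower under either scaling, Atp5sl at -0.72 (adjusted p 2.8e-03) and Atp5s at -0.56 (adjusted p 0.0172), which DESeq2 did not call (adjusted p 0.0524). Only 1 of both was called without LPS 1 or without Veh 2. They are low, at 2.46 to 6.49 CPM for Atp5sl in Veh and LPS together, and their part in the respiratory chain's counts is 2 of its 3 lower calls.

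The mitoribosome holds the largest changes of all members. Mrpl39, a large-subunit protein without a bacterial counterpart, had 20.9, 22.2 and 19.8 CPM in Veh, 69.7, 67.7 and 66.5 in LPS and 68.6, 64.6 and 63.5 in T0+LPS. All LPS-treated libraries stood about together, far above Veh, at a log2 change of 1.70 (SE 0.06, adjusted p 3.2e-13), and 1.42 with library totals. Mrpl52, another large-subunit protein, had 13.3, 13.4 and 13.2 CPM in Veh, 37.0, 41.2 and 29.0 in LPS and 35.1, 38.2 and 38.7 in T0+LPS. Its lowest LPS library, LPS 3, was still above all of Veh, and it rose by 1.43 (SE 0.11, adjusted p 7.6e-09) and was also called with library totals.

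Mrps18b, a small-subunit protein from a family of related mitoribosomal proteins, had 10.4, 11.1 and 10.4 CPM in Veh, 20.9, 20.6 and 20.6 in LPS and 19.8, 19.9 and 21.8 in T0+LPS. The LPS libraries hardly differed among themselves, and the change was 0.96 (SE 0.08, adjusted p 3.7e-08), or 0.68 with library totals. Mrpl32, a large-subunit protein that needs cleavage by a mitochondrial protease before it is assembled, was singled out after its values were seen, as the remaining rise of over 1.5-fold. It had 12.8, 12.8 and 14.4 CPM in Veh and 19.5, 21.2 and 21.2 in LPS. Here too no LPS library fell into the range of Veh, at 0.63 (SE 0.09, adjusted p 7.3e-06), or 0.35 with library totals. With Atp5b, these 4 were the only members called higher under both scalings.

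**Figure D4:**
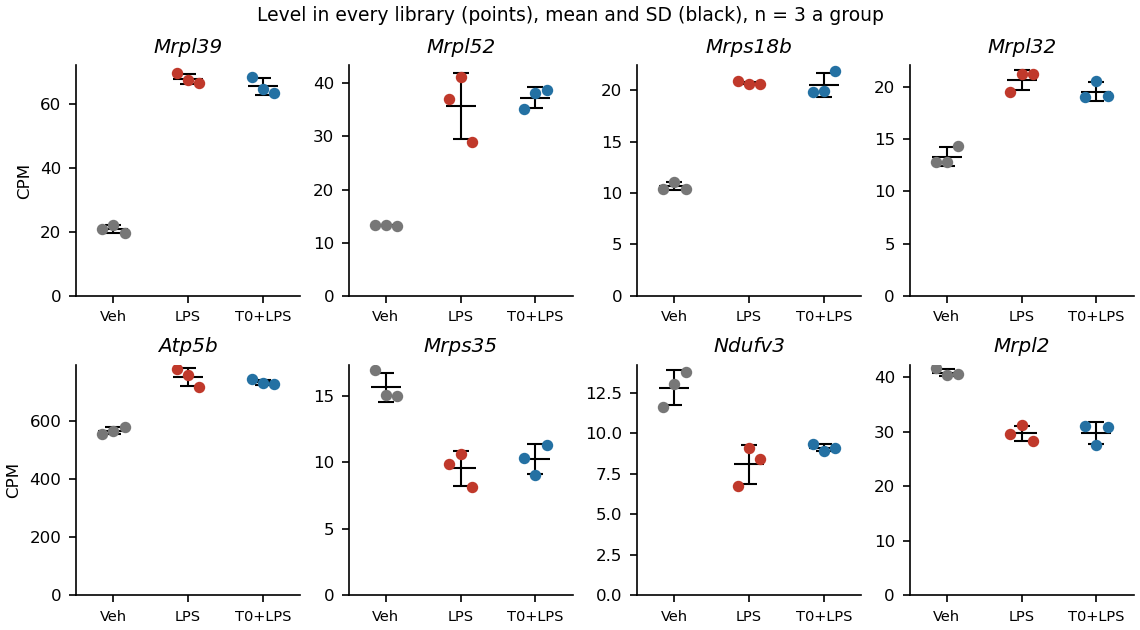
CPM (TMM-scaled) of 8 members in each library, with mean and SD (n = 3 a group), axes from 0. Mrpl39, Mrpl52, Mrps18b, Mrpl32 and Atp5b are higher and Mrps35, Ndufv3 and Mrpl2 lower in both LPS-treated groups than in Veh, directions that library totals also give, and T0+LPS lies beside LPS in each.

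The promoters of these 4 genes are printed because they rose most and lie in a family whose promoters share motifs. Of 161 members, 137 matched the RefSeq promoter table (build GRCm38.p6), which gives 250 bases before to 50 after each start. Searched on both strands, the letters GCGCANGCG, bound by NRF1, were in 36 member promoters (26.3%) against 7.03% of 27025 genes. CCGGAAG, bound by ETS factors such as GABP, was in 41 (29.9%) against 9.93%, and AAGATGGCG, bound by YY1, in 16 (11.7%) against 1.64%. At least 1 of these was in 77 (56.2%) against 16.5%. CACGTG, the E-box, was in 8.76% against 8.09%, and TATAAA in 8.76% against 15.7%. In the respiratory chain 29.0% held the NRF1 letters and 23.2% the ETS letters, and in the mitoribosome 23.5% and 36.8%. The NF-kB motif, searched after the values were seen, was in 12 member promoters (8.76%) against 9.55% and in none of the 4 printed. Capitals mark the NRF1 and ETS letters on either strand; a palindromic NRF1 stretch counts on both, so Mrpl39 has 2 overlapping matches and Mrpl32 has 3, of which 2 overlap. Mrpl52 has 2 ETS matches, and Mrps18b has 1 NRF1 and 1 ETS match. A match describes the letters, not binding. The windows are Mrpl39 at chr16:84735195-84735494 (minus strand), Mrpl52 at chr14:54426659-54426958 (plus), Mrps18b at chr17:35916391-35916690 (minus) and Mrpl32 at chr13:14612988-14613287 (minus), each 5′ to 3′ along the gene. The start in the promoter table is not always that of the other annotations. Mrps18b ends at 35916369 in the count table's rows and at 35916389 in GENCODE, so its whole window, ETS match included, lies upstream of the gene in both, and it covers the GENCODE start of Ppp1r10 at 35916434. The window of Mrpl39 lies wholly within the gene in GENCODE, where it ends at 84735742, and that of Mrpl32 covers the GENCODE start of Psma2 at 14613240.
Mrpl39: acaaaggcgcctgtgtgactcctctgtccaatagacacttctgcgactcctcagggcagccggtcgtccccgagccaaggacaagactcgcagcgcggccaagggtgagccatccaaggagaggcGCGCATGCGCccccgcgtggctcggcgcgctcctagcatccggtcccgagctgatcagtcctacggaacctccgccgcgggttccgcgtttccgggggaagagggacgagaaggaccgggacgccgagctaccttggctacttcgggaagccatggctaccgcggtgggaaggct
Mrpl52: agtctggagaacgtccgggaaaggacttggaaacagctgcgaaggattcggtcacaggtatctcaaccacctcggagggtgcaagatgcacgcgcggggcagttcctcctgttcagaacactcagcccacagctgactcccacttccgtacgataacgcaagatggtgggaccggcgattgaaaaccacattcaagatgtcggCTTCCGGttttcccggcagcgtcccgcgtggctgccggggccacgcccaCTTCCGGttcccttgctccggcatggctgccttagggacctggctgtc
Mrps18b: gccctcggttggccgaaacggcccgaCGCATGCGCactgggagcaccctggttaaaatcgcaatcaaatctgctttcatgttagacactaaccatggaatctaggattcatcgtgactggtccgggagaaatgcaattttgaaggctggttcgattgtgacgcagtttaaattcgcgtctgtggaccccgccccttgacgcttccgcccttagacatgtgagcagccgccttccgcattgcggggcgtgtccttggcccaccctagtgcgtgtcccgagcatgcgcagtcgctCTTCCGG
Mrpl32: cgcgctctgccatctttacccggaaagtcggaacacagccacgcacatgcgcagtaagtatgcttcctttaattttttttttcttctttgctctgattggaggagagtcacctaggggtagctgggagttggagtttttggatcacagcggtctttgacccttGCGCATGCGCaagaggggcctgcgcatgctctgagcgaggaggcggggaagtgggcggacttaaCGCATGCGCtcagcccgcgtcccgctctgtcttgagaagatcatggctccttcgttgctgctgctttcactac

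The genes next to these 4 were looked up after the values were seen. Mrpl39 (chr16:84717580-84735302, minus strand) ends 3375 bases from Mir155 and 2334 bases from its host transcript Mir155hg, which run toward it on the plus strand in the annotation. Mir155 is a microRNA made in activated macrophages, and its row of 65 bases lies within Mir155hg, which has no row of its own in the table. Reads of polyA RNA on that row do not measure the mature microRNA. They came to 0 CPM in all Veh libraries, 6.50, 6.33 and 6.64 in LPS and 3.05, 4.53 and 5.27 in T0+LPS. Mrpl52 (chr14:54426909-54429750, plus strand) lies 1853 bases upstream of Mmp14, a membrane protease on the same strand. Mmp14 had 1.92, 2.05 and 2.66 CPM in Veh, 142, 124 and 128 in LPS and 104, 117 and 121 in T0+LPS, a log2 change of 5.89 in LPS against Veh (adjusted p 1.5e-17). How often other genes have a neighbor that rises with LPS was not counted.

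The other risers each start beside a gene transcribed the other way. Mrpl32 starts 204 bases from Psma2, a proteasome subunit, by the table's rows and 74 bases from it in GENCODE, and Psma2 rose by 0.54 (adjusted p 9.8e-08), about as much as Mrpl32 itself. Mrps18b starts 826 bases from Ppp1r10 by the table's rows and 44 bases from it in GENCODE, and Ppp1r10 was not called at 0.02. At its other end Atat1, 316 bases away, was not called at -0.12. The library kit did not mark strands, and whether transcripts of neighbors add reads to Mrpl39 or Mrpl52 was not tested.

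Among the other mitoribosomal genes called higher, Mrps22, a small-subunit protein, rose by 0.45 (adjusted p 1.5e-04), or 0.17 with library totals. The falls were led by Mrps35, also of the small subunit, with 16.9, 15 and 14.9 CPM in Veh and 9.83, 10.6 and 8.11 in LPS. No LPS value reached Veh, and the change was -0.71 (SE 0.11, adjusted p 2.7e-05). Mrpl2, a core protein of the large subunit close to the peptidyl transferase center, had 41.6, 40.3 and 40.7 CPM in Veh and 29.6, 31.2 and 28.3 in LPS. The gap between groups was many times the spread within them, at -0.46 (SE 0.06, adjusted p 7.6e-06). Mrpl49 of the large subunit changed by -0.42 (adjusted p 6.0e-05).

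Mrps6 of the small subunit changed by -0.41 (adjusted p 1.4e-03), with 40.8, 32.0 and 38.6 CPM in Veh and 24.5, 31.5 and 27.6 in LPS. Veh 2 was close to LPS 2, and the groups only just miss overlapping. Its locus on chr16 overlaps that of Slc5a3, a myo-inositol transporter gene that starts close to it, and Slc5a3 changed by -1.62 (adjusted p 3.2e-09). Reads on bases that rows of both genes cover were counted for neither. Whether other transcripts of the Slc5a3 locus add reads to Mrps6 was not tested. In all, 14 members were called lower under both scalings, 11 of them mitoribosomal, of which DESeq2 called 5; with TMM factors 6 mitoribosomal genes were called lower without Veh 1, and 7 without Veh 2 or without LPS 3.

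The large subunit had 13 of 47 genes called higher and 8 lower with TMM factors (3 and 25 with library totals), and the small subunit 5 of 25 higher and 3 lower (1 and 15). Without LPS 3 the higher calls were 20 and 8. The lower calls of the large subunit were 5 without LPS 1, LPS 3, Veh 2 or Veh 3 and 3 without Veh 1. For comparison, the cytosolic ribosomal proteins had 17 of 70 called higher and none lower with TMM factors, and none higher and 57 lower with library totals, at a median of 0.10 with TMM factors and -0.18 with library totals. Their higher calls with TMM factors were 57 without LPS 3, 4 without LPS 1 and 5 without LPS 2, Veh 1 or Veh 2. No test between these groups was made.

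T0+LPS against LPS asks whether the LXR agonist alters these genes in the presence of LPS. No effect was detectable, while LXR targets rose strongly in the same libraries and some inflammatory genes fell. Respiratory chain and mitoribosome genes lay at nearly the same level with and without it.

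None of the 68 respiratory chain and 72 mitoribosome genes was called in either direction by edgeR, against 1.35% of all 9348 symbols called higher, 1.83% called lower and 0.770% called with a fold of over 1.5. DESeq2 and limma-voom also called 0. At an unadjusted p under 0.05, edgeR had 2 respiratory chain and 8 mitoribosome genes, 10 of 140 in all (9 higher, 1 lower), DESeq2 had 3 and limma-voom 8, beside 1299, 895 and 1292 of all symbols. Of the respiratory chain genes 67 of 68 and of the mitoribosome genes 71 of 72 had an estimated change within 1.2-fold, as did 8069 of all 9348 symbols. The median log2 change was 0.02 for the respiratory chain and 0.03 for the mitoribosome, and -0.04 and -0.03 without LPS 3, so its sign rests on that library.

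The agonist's action is seen in Abcg1, a cholesterol exporter and LXR target. It had 376, 373 and 394 CPM in LPS and 1628, 1665 and 1572 in T0+LPS, with no overlap, a rise of 2.09 (adjusted p 8.0e-14). The exporter Abca1 rose by 1.47, the lipogenic regulator Srebf1 by 1.30 and the desaturase Scd2 by 3.92. Of 4 LPS-response genes, 3 were called lower: Il1b at -0.48, Ptgs2 at -0.68 and Cxcl1 at -0.25, while Tnf was not called at -0.25.

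The member with the smallest p was Mrps28, a small-subunit protein, with 8.24, 8.88 and 7.57 CPM in LPS and 11.4, 10.7 and 9.50 in T0+LPS. The groups do not overlap, but the change of 0.35 (SE 0.12) did not pass, at an adjusted p of 0.179. Ndufa4, a complex IV subunit despite its name, followed at 0.15 (SE 0.05, adjusted p 0.212), and Mrpl36 of the large subunit at 0.24 (adjusted p 0.236). Mrps5, named after its values were seen as the only one of the 10 with a negative change, stood at -0.21 (adjusted p 0.268). The largest estimate, 0.60 for Cox7a1, had an SE of 0.34 at about 1 CPM, so it is not distinguishable from 0.

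Of the 7 members called with over 1.5-fold in LPS against Veh, none was called here. Among the rises, Mrpl39 stood at -0.05 (SE 0.06), Mrpl52 at 0.06 (SE 0.10), Mrps18b at -0.01 (SE 0.08) and Mrpl32 at -0.08 (SE 0.08). Among the falls, Ndufv3 stood at 0.17 (SE 0.13), Mrps35 at 0.10 (SE 0.13) and Atp5sl at -0.07 (SE 0.22). Of the smaller falls named above, Mrps6 at 0.22 (p 0.041, adjusted p 0.326) and Mrpl49 at 0.195 (p 0.022, adjusted p 0.242) had estimates toward Veh that did not pass, and Mrpl2 stood at 0.00. Slc5a3, whose locus overlaps that of Mrps6, was called higher here at 0.40 (adjusted p 0.0299). Whether transcripts of that locus outside the bases both rows cover add reads to Mrps6 was not tested. The SE had a median of 0.07 for respiratory chain and 0.08 for mitoribosome genes. At these errors estimates of 0.35 for Mrps28 and 0.24 for Mrpl36 did not pass. Changes of such a size can thus go undetected in a single gene.

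**Figure D5:**
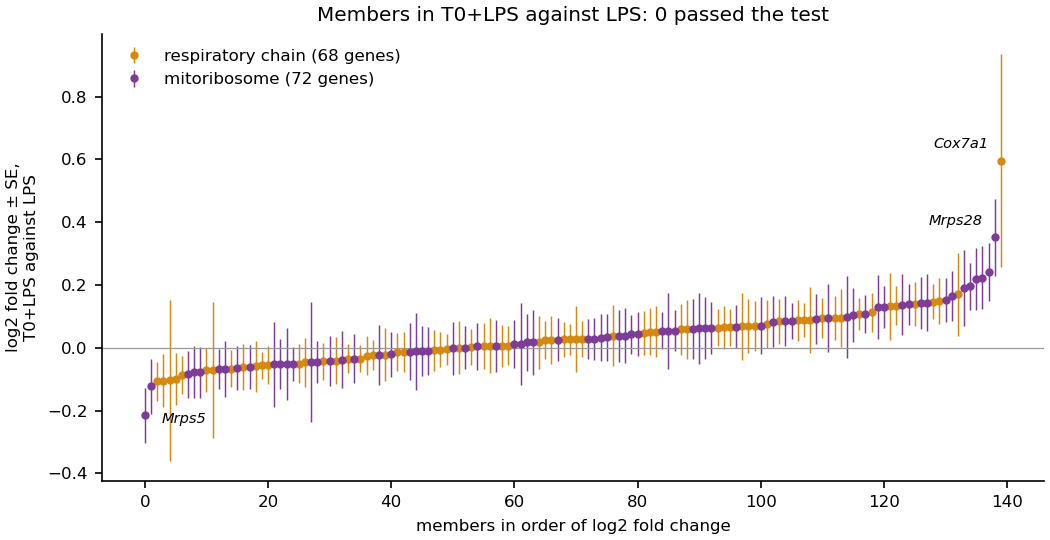
Log2 fold change ± SE of 140 members in T0+LPS against LPS (3 libraries each, TMM factors), ordered by size, respiratory chain in orange and mitoribosome in purple. None passed the test; Mrps28 at 0.35 and Cox7a1 at 0.60 are highest and Mrps5 at -0.21 is lowest, and with library totals 0 members passed as well.

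T0+LPS against Veh asks what the agonist and LPS do together. It shares Veh with the LPS comparison, and LPS and T0+LPS had the same stimulus, so its values are given beside those above and not as a repeat of them. With TMM factors the classes showed small relative rises in complexes III, IV and V, little in I and II, and both directions in the mitoribosome.

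With TMM factors 28 of 68 respiratory chain genes (41.2%) were called higher and 3 (4.41%) lower, but 2 higher and 40 lower with library totals, and 24 of 73 mitoribosome genes (32.9%) were called higher and 10 (13.7%) lower, but 7 and 38 with library totals. Among all 9636 symbols 32.4% were called higher and 32.9% lower with TMM factors and 17.2% and 57.3% with library totals, where the respiratory chain had 2.94% and 58.8% and the mitoribosome 9.59% and 52.1%. DESeq2 called 6 mitoribosome genes lower. With TMM factors 28.8% of all symbols were called with a fold of over 1.5, where the members had 6 of 141 (4.26%). The medians of both sets lay 0.15 and 0.11 above that of all symbols. Complex IV had 10 of 12 and complex V 9 of 13 genes called higher with TMM factors, and complex II none of 4. With library totals complex IV had 0 higher and 3 lower, complex V 2 and 4, and complex II 0 and 4. With TMM factors Sdha was called higher without T0+LPS 3, at 0.11, and Sdhd without Veh 3, at 0.14, and DESeq2 called Sdha higher at 0.10.

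Mrpl39 rose by 1.63, Mrpl52 by 1.47 and Mrps18b by 0.93, all called under both scalings. Ndufb6, an accessory subunit in the membrane arm of complex I, had 30.5, 29.3 and 32.2 CPM in Veh and 40.4, 41.4 and 37.5 in T0+LPS, and rose by 0.35 (adjusted p 1.3e-04). In LPS its groups overlapped through LPS 3 at 30.8 CPM, whereas here they are separate. Atp5b and Atp5g3 rose by 0.35 and 0.36 and Cox5a by 0.34, of which the ATP synthase genes were also called with library totals.

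Mrps35 changed by -0.64, Ndufv3 by -0.51, Mrpl2 by -0.48 and the large-subunit protein Mrpl1 by -0.37. DESeq2 did not call Mrpl1, at -0.36 (adjusted p 0.059). Mrps28, with no call in either other comparison, rose by 0.40 (adjusted p 7.3e-03) with TMM factors. With library totals its change of 0.13 was not called (adjusted p 0.308). Mrps10, tested only here, was not called. Under both scalings 9 members were called higher and 13 lower, and Mrpl12, Mrpl20 and Mrpl45 of the large subunit, named after their values were seen, joined those of the LPS comparison at 0.39, 0.40 and 0.41.

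Other genes of the mitochondrial program were taken from lists by role. Their counts stand beside 32.9% of all symbols called higher and 31.2% lower with TMM factors, no test between lists was made, and most lists are short. In LPS against Veh, mitochondrial protein import had 10 of 16 genes called higher and 2 lower with TMM factors (4 and 4 with library totals), and 6 higher with TMM factors without LPS 2. Tomm70a, an import receptor, had 120, 122 and 118 CPM in Veh and 191, 183 and 188 in LPS, a rise of 0.65, and the channel genes Timm17a and Timm23 rose by 0.81 and 0.78. Their groups did not overlap, though Timm17a ran from 44.2 to 53.4 CPM within LPS, and all 3 genes were positive with library totals. Among cytochrome c and other carriers, a list that also holds Cyc1 of complex III, 6 of 8 were called higher and 2 lower with TMM factors. With library totals 1 was called higher and 4 lower, and without Veh 3 only 1 was called lower with TMM factors. Cycs, cytochrome c itself, stood at 0.88 (adjusted p 1.4e-07).

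The nuclear regulators had 5 of 7 called higher and 1 lower (4 and 2 with library totals). Esrra, an orphan receptor that drives respiratory genes, had 80.2, 81.5 and 84.2 CPM in Veh and 150, 158 and 147 in LPS. The groups are far apart, at 0.89 (adjusted p 7.3e-11). Pprc1, a coactivator of the PGC-1 family, rose by 0.88, while its relative Ppargc1b changed by -0.52 (adjusted p 0.0218) and was not called by DESeq2 or without LPS 2, LPS 3, Veh 1 or Veh 2, at -0.41, -0.49, -0.51 and -0.51.

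Of 14 mitochondrial aminoacyl-tRNA synthetases, none was called higher and 7 lower with TMM factors (0 and 12 with library totals), at a median of -0.24. Of 12 genes for transcription and DNA maintenance, 2 were called higher and 5 lower (0 and 8), among them the helicase Peo1 at -1.38 and the RNA polymerase Polrmt at -0.47; only 1 was called higher without LPS 1, LPS 2, Veh 1 or Veh 3. Of 12 complex I assembly factors, 2 were called higher and 3 lower (0 and 7; 1 higher with TMM factors without LPS 2), and Tmem126b changed by -1.46 with 22.0, 21.4 and 22.1 CPM in Veh and 8.56, 8.37 and 6.80 in LPS. Its groups are far apart while the subunits it helps to assemble moved little with TMM factors. None of the genes of these lists was called in T0+LPS against LPS. Genes of the mitochondrial DNA have no row in the table.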

How the data were processed

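The deposited counts are raw reads per transcript row that the authors assigned with featureCounts to RefSeq rows, after trimming with cutadapt and alignment with HISAT2 to mm10. Rows of one symbol were summed. Each comparison used its 6 libraries only, edgeR 4.0.16 (R 4.3.3) with TMM factors, filterByExpr over both groups and the quasi-likelihood test, with Benjamini-Hochberg adjustment over all symbols tested. DESeq2 1.42.0, limma 3.58.1 (voom), library totals, other filters, a replicate block, a length offset and leaving out each library were alternatives. The deposited comparison tables, which hold DESeq2 means, p-values and RPKM folds for T0+LPS against LPS and gene names for LPS against Veh, were not used, and 0 value columns were left unmapped. Named genes are, per comparison and for each of 7 classes, the 2 largest called rises and falls without overlap between groups and with a mean of at least 5 CPM, otherwise the smallest p; the 2 highest levels per length; the SDH subunits; tissue-restricted isoforms; up to 3 called genes per list and direction; and controls. Members and lists were chosen with earlier results of these data known. The pipeline was tested on simulated data.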

Additional observations from a re-analysis of the deposited data

How the results depend on the processing

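Of the counts and medians under the alternatives, 364 kept their place and 38 moved, and 32 values of named genes reversed their sign while called under at least 1 of the settings compared, all under library totals. Some values not called with all libraries also changed sign when a library was left out. In LPS against Veh Sdhb ran from -0.14, where it was called, to 0.014, and Uqcr10 from -0.07 to 0.06. In T0+LPS against LPS Mrpl52 ran from -0.07 to 0.18. With library totals in LPS against Veh, 1 respiratory chain gene was called higher and 37 lower (median -0.16), 4 mitoribosome genes higher and 40 lower (median -0.21), and 1694 of all genes higher and 5411 lower. In T0+LPS against Veh the counts were 2 and 40 (median -0.14), 7 and 38 (median -0.18), and 1659 and 5523. The cause lies in the alternative itself, which moves all genes down together. The values that reversed in LPS against Veh were Ndufa9 at -0.012, Sdha at -0.14, Uqcrfs1 at -0.0028, Uqcrb at -0.026, Cox5a at -0.0056, Sdhaf2 at -0.11, Coa5 at -0.014, Slirp at -0.043, Gfm1 at -0.038, Etfa at -0.047, Uqcrh at -0.25, Uqcr10 at -0.26, Cox4i1 at -0.11, Cox6a1 at -0.054, Mrps21 at -0.24 and Sdhd at -0.16. In T0+LPS against Veh they were Ndufa2 at -0.058, Sdha at -0.18, Uqcrfs1 at -0.013, Uqcrc1 at -0.083, Cox8a at -0.023, Sdhaf2 at -0.12, Gfm1 at -0.029, Slc25a5 at -0.025, Sdhb at -0.25, Uqcrh at -0.20, Uqcr10 at -0.13, Cox4i1 at -0.11, Cox6a1 at -0.084, Atp5a1 at -0.021, Mrps21 at -0.21 and Sdhd at -0.16. At an adjusted p under 0.01, LPS against Veh had 14 respiratory chain genes higher and 4 mitoribosome genes lower, and T0+LPS against LPS had 66 of all genes higher and 81 lower, which follows from the stricter cut. DESeq2 called 5 mitoribosome genes lower in LPS against Veh and 6 in T0+LPS against Veh, and the cause was not tested. Without the filter on low counts T0+LPS against LPS had 225 of all genes higher and 285 lower, and the cause was not tested. Leaving out a library gave 13 to 43 respiratory chain genes higher, 15 to 28 mitoribosome genes higher and 6 to 12 lower in LPS against Veh. In T0+LPS against LPS it gave 59 to 167 of all genes higher and 82 to 191 lower, and 0 members were called in any of these. The mitoribosome median of T0+LPS against Veh was 0.072 to 0.099 over these fits, 0.10 when fitted with all 9 libraries and 0.11 with a length offset, and the cause was not tested.

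The replicate block, which treats equal replicate numbers as paired, gave 24 respiratory chain genes higher and 3 lower and 17 mitoribosome genes higher and 11 lower in LPS against Veh. In T0+LPS against LPS it gave 0 members, and 155 of all genes higher and 230 lower, against 126 and 171 without the block. In T0+LPS against Veh it gave 27 and 3, and 23 and 11. Correlations between deviations of equal numbers from their group means were -0.03 to 0.05. They show no clear pairing but do not exclude a replicate effect.

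There were 3 cultures a group and no time course, and RNA levels say nothing of protein, complex assembly or respiration. Of 161 members 20 were not tested: 13 with several rows, most of them with little unshared sequence, and 7 with 1 row, most of them with few or no reads on ample sequence. The library LPS 3 is low for short genes, and counts in the LPS comparisons rest on it. Without spike-ins the direction of small changes depends on the scaling, and that of members called under both scalings holds for these 2 scalings only. Neighboring and overlapping transcripts were not separated, since strands were not marked, and members with few reads, such as Cox7a1, allow no statement on small changes.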

Other observations

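Values of further lists in LPS against Veh were as follows, with TMM factors and then library totals, beside 32.9% of all symbols called higher and 31.2% lower with TMM factors; several of the lists are near those shares and none was tested against them. Of 13 TCA cycle enzymes, 7 were called higher and 0 lower (2 and 6; 1 lower with TMM factors without LPS 2), with Dld, the shared dehydrogenase subunit of several complexes, at 0.61, Dlst at 0.51 and citrate synthase Cs at 0.34. Of 18 complex IV assembly factors, 4 were called higher and 6 lower (1 and 11), with the copper chaperone Cox17 at 0.63 and the translational activator Taco1 at -0.90. Of 4 complex II and III assembly factors, 1 was called higher and 2 lower (0 and 3; 0 and 3 with TMM factors without LPS 2), with Bcs1l, which inserts the Rieske protein, at -0.65. Of 7 mitochondrial translation factors, 1 was called higher and 3 lower (0 and 5), with Gfm1 at 0.24 and Gfm2 at -0.62. Of 2 ATP synthase assembly factors, 0 were called higher and 1 lower (0 and 2), with Atpaf1 at -0.35, not called by DESeq2 or without LPS 1, LPS 3, Veh 1 or Veh 3, at -0.37, -0.29, -0.33 and -0.28.

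Irg1, the enzyme that makes itaconate, had 2.78, 6.61 and 6.66 CPM in Veh, 5796, 5681 and 5593 in LPS and 5278, 5742 and 5731 in T0+LPS, and its change in T0+LPS against LPS of -0.03 was not called. The mitochondrial superoxide dismutase Sod2 rose by 3.87 in LPS against Veh. The mitochondrial leucyl-tRNA synthetase Lars2 varied within groups, with 106, 206 and 115 CPM in Veh, 115, 166 and 100 in LPS and 121, 272 and 302 in T0+LPS, and its call of 0.69 in T0+LPS against Veh (adjusted p 0.0268) has overlapping groups and was lost with DESeq2 and without T0+LPS 2, T0+LPS 3, Veh 1 or Veh 3, at 0.57, 0.47, 0.52 and 0.56.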
